A study of Mus musculus with 24 samples.

Results

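Interferon-stimulated genes are switched on when cells sense viral nucleic acid or interferon. The 44 members described here were taken from a list of interferon transcription factors, nucleic acid sensors and antiviral effectors and matched by symbol; the list was drawn up with earlier results of these data known. They are 44 of the 35968 genes that the transcript tables cover. Of these 44, 40 passed a filter on low counts and were among the 14577 genes tested; Zbp1, Oas2, Ifit3b and Mx2 did not pass and are given as counts.

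RNA was measured in C2C12 cells, a mouse myoblast line that is grown as dividing precursors and fuses into muscle fibres when serum is withdrawn. All groups were subconfluent undifferentiated cells in serum-containing medium, harvested 48 h after siRNA treatment, with 3 libraries per group and poly(A)-selected RNA. The groups were siKeap1, one siRNA against Keap1; siFem1b, one siRNA against Fem1b; siFem1b/Keap1, both siRNAs together; and siCont, a non-targeting siRNA. KEAP1 and FEM1B are substrate receptors of ubiquitin ligases, and each gene was targeted with a single siRNA sequence, in a single cell line. The labels do not say whether the libraries of a group came from separate cultures, so the p-values rest on how these libraries vary, and that variation may be technical only.

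In the interferon pathway, receptors such as RIG-I and MDA5 bind foreign RNA and signal to the transcription factors IRF3 and IRF7, which turn on interferon genes. Secreted interferon binds its receptors, Janus kinases phosphorylate STAT factors, and a complex that holds STAT2 and IRF9 binds interferon-stimulated response elements in the promoters of target genes. Many of the target genes encode the sensors and factors of the pathway itself, and most cells keep a low basal level of them.

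Libraries held between 31883615 and 42980730 counts. Both siRNAs reduced their targets: Keap1 averaged 9.99 ± 1.3 CPM in siKeap1 libraries and 9.38 ± 0.189 CPM in siFem1b/Keap1 libraries, against 61.8 ± 1.4 CPM in siCont libraries (CPM are read counts divided by TMM-scaled library size; mean ± SD, n = 3 each). Fem1b averaged 13.2 ± 0.424 CPM in siFem1b libraries and 12.7 ± 1.33 CPM in siFem1b/Keap1 libraries, against 96.9 ± 3.98 CPM in siCont libraries. Summed levels of cell type markers differed between the groups. The 8 myoblast markers, all tested, summed to between 1778 and 1894 CPM in siKeap1, 2479 and 2592 CPM in siFem1b, 2220 and 2280 CPM in siFem1b/Keap1 and 2035 and 2090 CPM in siCont libraries, with no overlap, and 7 were higher and 0 lower with siFem1b than with siCont. The 6 genes of differentiated muscle summed to between 15.1 and 16.1 CPM in siKeap1, 159 and 169 CPM in siFem1b, 143 and 156 CPM in siFem1b/Keap1 and 11.4 and 14.6 CPM in siCont libraries. All 6 were higher with siFem1b and with siFem1b/Keap1 than with siCont, whereas 1 was higher and 3 lower with siKeap1 than with siCont, and 1 higher and 5 lower with siFem1b/Keap1 than with siFem1b (median log2 -1.37 and -1.90). The 6 epithelial markers summed to between 102 and 108 CPM in siKeap1, 82.1 and 90.4 CPM in siFem1b, 146 and 164 CPM in siFem1b/Keap1 and 42.5 and 47.6 CPM in siCont libraries. Of the 5 tested, 3, 4 and 5 were higher with siKeap1, siFem1b and siFem1b/Keap1 than with siCont and 0 lower, and with siFem1b 3 were higher and 1 lower than with siKeap1 (median log2 0.81). The 10 macrophage and leukocyte markers summed to between 4.54 and 5.27 CPM in siKeap1, 2.51 and 2.97 CPM in siFem1b, 6.23 and 6.98 CPM in siFem1b/Keap1 and 1.78 and 2.40 CPM in siCont libraries, with no overlap; only Cd68 and Csf1r of them passed the filter, and Adgre1, which encodes the macrophage marker F4/80, had no count. The part of any of these shifts in the results below was not tested.

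Most interferon-stimulated genes rose where Fem1b was depleted, and with Keap1 alone depleted the smaller number of calls went both ways. With siFem1b, 33 of the 40 tested members were higher than with siCont at an adjusted p under 0.05, and 0 were lower, where 30.0% of all tested genes were called higher and 32.1% lower. With siFem1b/Keap1, 37 were higher and 1 lower than with siCont, where 33.8% of all tested genes were called higher and 33.7% lower. With siKeap1, 9 were higher and 5 lower than with siCont, beside 18.4% and 23.8% of all tested genes. The siKeap1 counts depended on single libraries: 5 were higher without siCont library 1 or siCont library 3, and 3 were lower without siCont library 3 or siKeap1 library 2 and 2 without siKeap1 library 3. With siFem1b, 33 members passed an unadjusted p under 0.05, 0 were called lower by DESeq2, and 1 was lower without siCont library 2. Rises of at least 1.5-fold were called for 26 members with siFem1b and 33 with siFem1b/Keap1, where 14.3% and 18.2% of all tested genes rose that far.

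The median log2 fold change of the 40 members was 1.11 with siFem1b, 1.41 with siFem1b/Keap1 and 0.18 with siKeap1, while the medians over all tested genes were -0.01, 0.01 and -0.02. With library totals in place of TMM scaling, the median of all tested genes was 0.09 with siFem1b and 0.13 with siFem1b/Keap1, and the share of higher among all calls was 60.6% and 62.1%, against 48.3% and 50.1% with TMM. Under that scaling the members' medians were 1.21 and 1.54, with 34 and 37 members higher and 0 lower in each comparison. Low genes pass the filter more easily where a group raises them. The members were also counted by their mean over all 12 libraries. That mean includes the groups with siFem1b, so it does not remove this. Irf7, Igtp and Gbp2 averaged under 1 CPM with siKeap1 and siCont and passed 1 CPM only through the groups with siFem1b. Of the 28 members with a mean of at least 1 CPM, 24 rose and 0 fell with siFem1b, 27 rose and 1 fell with siFem1b/Keap1, and 7 rose and 5 fell with siKeap1. Of the 11999 tested genes at that level, 3713 rose and 4569 fell with siFem1b (30.9% and 38.1%). With siFem1b/Keap1 34.5% rose and 39.8% fell, and with siKeap1 19.9% rose and 28.4% fell. Added up, the members made up between 398 and 414 CPM of a siKeap1 library, 538 and 548 CPM of a siFem1b library, 650 and 660 CPM of a siFem1b/Keap1 library and 371 and 376 CPM of a siCont library, with no overlap between the groups. In bulk RNA, a change in the number of cells that express a gene and a change in RNA per cell cannot be told apart.

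Across the 3 comparisons with siCont, 22 members rose with siFem1b and with siFem1b/Keap1 and did not pass the test with siKeap1. Another 7 rose in all 3 comparisons, and 4 fell with siKeap1 and rose in both others. Of the remaining 7, Mx1, Isg20 and Gbp3 rose with siFem1b/Keap1 alone, Trim25 with siKeap1 and siFem1b/Keap1, and Ifit1 with siKeap1 alone, while Ifit2 fell with siKeap1 and siFem1b/Keap1 and Oas1b passed in none. The 3 comparisons share the siCont libraries, so these patterns are not independent of each other. They were counted for the members only, so how common each pattern is over all tested genes is not known. Taken singly, 18.4%, 30.0% and 33.8% of all tested genes were called higher with siKeap1, siFem1b and siFem1b/Keap1. The siFem1b/Keap1 group had the highest mean of the 4 groups for 34 of the 44 members, and siCont the lowest for 31. This order was not counted over all genes. It includes Zbp1, Oas2, Ifit3b and Mx2, which were too low to test.

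**Figure D1:**
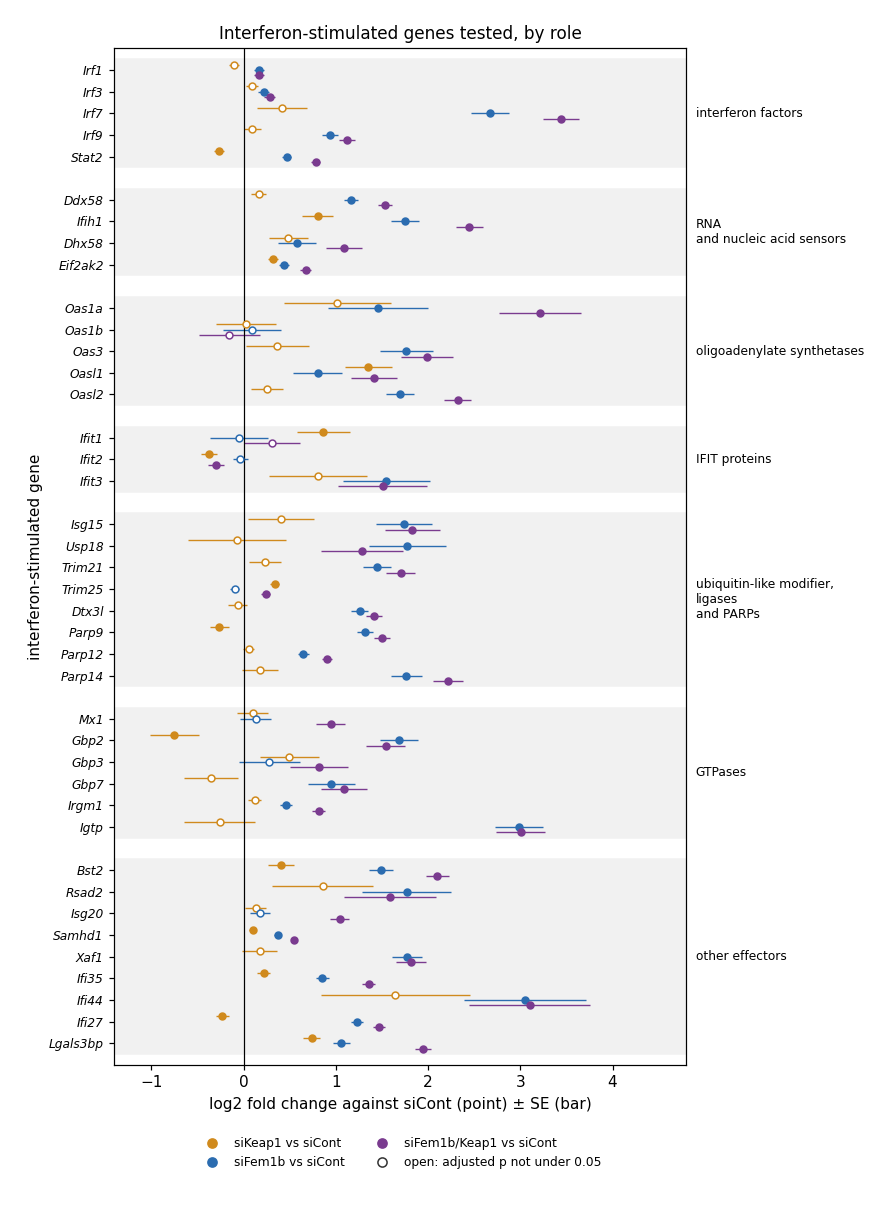
Log2 fold change against siCont (x axis, point ± SE) of the 40 interferon-stimulated genes tested (y axis), in blocks by role, for siKeap1, siFem1b and siFem1b/Keap1; open points did not pass an adjusted p of 0.05. Most siFem1b and siFem1b/Keap1 points lie right of 0, with medians of 1.11 and 1.41, while the siKeap1 points scatter around a median of 0.18. The siFem1b points of Ifit2, Ifit1 and Trim25 lie left of 0, and Oas1b has open points only.

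Promoter sequences are shown for members at both ends of the response. RefSeq windows on GRCm38.p6, from 250 bases before to 50 after a gene's start, were found for 34 of the 44 members; the members without one were Dhx58, Zbp1, Oas1b, Oas2, Usp18, Parp9, Parp14, Mx1, Mx2 and Ifi27. The windows were searched on both strands for GAAA, any 2 bases and GAAA again, the core of the interferon-stimulated response element, which is in capitals below (its reverse complement where it lies on the other strand; overlapping matches run together). Isg15, the ubiquitin-like modifier, is shown for its 3 overlapping matches, at chr4:156200769-156201068 on the minus strand.
Isg15: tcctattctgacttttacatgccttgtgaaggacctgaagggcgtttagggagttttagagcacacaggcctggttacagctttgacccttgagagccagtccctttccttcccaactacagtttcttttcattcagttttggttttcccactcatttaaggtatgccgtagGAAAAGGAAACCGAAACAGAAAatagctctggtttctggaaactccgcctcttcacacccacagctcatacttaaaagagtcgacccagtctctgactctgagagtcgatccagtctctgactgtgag
Bst2, which encodes tetherin, holds 2 overlapping matches at chr8:71537423-71537722 on the minus strand.
Bst2: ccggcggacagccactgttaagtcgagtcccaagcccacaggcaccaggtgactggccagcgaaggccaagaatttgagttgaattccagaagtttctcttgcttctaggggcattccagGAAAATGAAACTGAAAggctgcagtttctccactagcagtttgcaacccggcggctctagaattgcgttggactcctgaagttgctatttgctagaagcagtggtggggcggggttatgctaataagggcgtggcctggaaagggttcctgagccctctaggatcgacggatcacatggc
Igtp, an immunity-related GTPase with one of the largest rises, holds 1 match at chr11:58199306-58199605 on the plus strand.
Igtp: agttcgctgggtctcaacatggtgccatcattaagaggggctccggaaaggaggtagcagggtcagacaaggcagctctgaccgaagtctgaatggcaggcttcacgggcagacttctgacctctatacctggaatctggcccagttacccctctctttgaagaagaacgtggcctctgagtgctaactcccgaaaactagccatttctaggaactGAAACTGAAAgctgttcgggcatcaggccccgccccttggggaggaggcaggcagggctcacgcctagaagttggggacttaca
Ifit1, which did not pass the test with siFem1b, holds 2 matches on the opposite strand at chr19:34640639-34640938, plus strand.
Ifit1: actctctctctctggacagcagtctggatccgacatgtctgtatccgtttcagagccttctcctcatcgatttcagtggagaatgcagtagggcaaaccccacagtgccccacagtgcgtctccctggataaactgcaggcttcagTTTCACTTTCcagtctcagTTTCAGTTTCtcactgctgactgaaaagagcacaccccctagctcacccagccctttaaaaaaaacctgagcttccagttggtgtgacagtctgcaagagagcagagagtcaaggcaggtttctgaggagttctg
Irf7, with the largest rise among the interferon factors, has no match in its window at chr7:141266375-141266674 on the minus strand.
Irf7: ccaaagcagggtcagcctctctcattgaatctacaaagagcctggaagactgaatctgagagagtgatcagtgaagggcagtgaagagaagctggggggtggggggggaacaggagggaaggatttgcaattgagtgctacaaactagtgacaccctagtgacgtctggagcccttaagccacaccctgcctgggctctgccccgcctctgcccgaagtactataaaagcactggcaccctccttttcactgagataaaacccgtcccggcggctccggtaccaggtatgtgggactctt
A match was present in the windows of 18 of the 34 members (52.9%), against 3.99% of the 27025 genes with a window. By windows, the shares were 18 of 40 (45.0%) for members and 3.44% of all 32851. TTCNNNGAA, the core of the gamma-activated site, was found in 10 of the 34 members (29.4%), against 9.55% of all genes with a window. Of the 17 tested members with the response element core, 15 rose with siFem1b (median log2 fold change 1.46), and of the 16 tested members with a window and no match, 13 rose (median 0.83). Among all other tested genes, 32.3% of those with the core and 30.7% of those without it were called higher with siFem1b. A letter match describes the window and does not show that a factor binds there.

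Among the interferon factors, all 5 rose with siFem1b and with siFem1b/Keap1, and Irf7 rose most. Over all tested genes, 30.0% were called higher with siFem1b, 33.8% with siFem1b/Keap1 and 18.4% with siKeap1. These shares also stand beside the counts by role that follow. Irf7 (chr7:141262706-141266481, minus strand, GRCm38) encodes the factor that amplifies interferon production and is itself induced by interferon. It had 0.593, 0.39 and 0.343 CPM with siKeap1, 2.09, 1.95 and 2.23 with siFem1b, 3.31, 3.52 and 3.88 with siFem1b/Keap1, against 0.313, 0.35 and 0.318 with siCont. Both groups that received siFem1b lay above all libraries of the other groups, and siKeap1 overlapped siCont. The rise was 6.37-fold with siFem1b (log2 2.67 ± 0.21 SE, adjusted p = 2.1e-09) and 10.8-fold with siFem1b/Keap1 (log2 3.44 ± 0.20, adjusted p = 1.7e-11), from edgeR's quasi-likelihood test with Benjamini-Hochberg adjustment over all genes. With both siRNAs the level was also 1.7-fold higher than with siFem1b alone (adjusted p = 0.00035).

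Stat2 and Irf9 encode subunits of the complex that binds interferon-stimulated response elements. Stat2 (chr10:128270559-128292849, plus strand) had 19, 18.1 and 19.2 CPM with siKeap1, 31, 30.4 and 31.8 with siFem1b, 37.1, 39.1 and 40.0 with siFem1b/Keap1, against 23.2, 21.6 and 22.7 with siCont. In CPM, the 4 groups were fully separated, with siKeap1 lowest and siFem1b/Keap1 highest. Stat2 fell 1.2-fold with siKeap1 (adjusted p = 0.00048), rose 1.38-fold with siFem1b (adjusted p = 2e-07) and rose 1.72-fold with siFem1b/Keap1 (adjusted p = 8.2e-11). Irf9 had 6.49, 5.61 and 6.31 CPM with siKeap1, 10.3, 11.3 and 11.5 with siFem1b, 13.2, 11.7 and 12.5 with siFem1b/Keap1, against 6.03, 6.05 and 5.21 with siCont. The siFem1b and siFem1b/Keap1 libraries all lay above the other 6, and siKeap1 overlapped siCont. Its rises were 1.92-fold with siFem1b and 2.17-fold with siFem1b/Keap1 (adjusted p = 2.3e-08 and 1.2e-09).

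Irf3 and Irf1 moved least of the 5. Irf3, the factor that sensors activate without new synthesis, had 29, 29.8 and 30.7 CPM with siKeap1, 34.4, 31.3 and 31.9 with siFem1b, 34, 31.7 and 36.7 with siFem1b/Keap1, against 27.3, 30.1 and 26.9 with siCont. Its rises of 1.16-fold with siFem1b and 1.22-fold with siFem1b/Keap1 were small but past the threshold (adjusted p = 0.0043 and 0.0004). Irf1, which interferon gamma induces, had 25.3, 26.2 and 26.3 CPM with siKeap1, 30.0, 31.4 and 33 with siFem1b, 32.1, 31.2 and 31 with siFem1b/Keap1, against 28.2, 29.6 and 26.2 with siCont. It rose 1.13-fold with siFem1b and 1.12-fold with siFem1b/Keap1 (adjusted p = 0.0089 and 0.0087), and without siCont library 3 neither rise passed (adjusted p = 0.071 and 0.072).

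The 4 RNA sensors tested rose in both groups with siFem1b, and Ifih1 and Eif2ak2 also rose with siKeap1. Ifih1 (chr2:62595798-62646255, minus strand) encodes MDA5, the receptor for long double-stranded RNA. It had 2.37, 2.99 and 3.33 CPM with siKeap1, 4.99, 6.42 and 5.49 with siFem1b, 8.61, 10.1 and 8.63 with siFem1b/Keap1, against 1.33, 1.97 and 1.74 with siCont. In CPM, none of the 4 groups overlapped, and siFem1b/Keap1 was highest. Ifih1 rose 1.74-fold with siKeap1 (adjusted p = 0.00064), 3.37-fold with siFem1b (adjusted p = 9.8e-09) and 5.45-fold with siFem1b/Keap1 (adjusted p = 3.2e-11). The siKeap1 rise did not pass with the first run alone (adjusted p = 0.086). In the authors' TPM, which correct for transcript length, siKeap1 and siCont were closer, at 1.06 ± 0.0716 and 0.924 ± 0.0224 TPM. Ddx58, which encodes RIG-I, the receptor for short RNA with a triphosphate end, had 9.54, 10.0 and 8.96 CPM with siKeap1, 18.8, 19.9 and 18.5 with siFem1b, 24.3, 24.9 and 24.7 with siFem1b/Keap1, against 7.36, 9.46 and 8.73 with siCont. It rose 2.9-fold with siFem1b/Keap1 (adjusted p = 2.1e-12), and the siKeap1 libraries overlapped siCont.

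Dhx58 encodes LGP2, which tunes signalling by the other RIG-I-like receptors. It averaged 1.17 ± 0.134, 1.25 ± 0.178 and 1.78 ± 0.288 CPM with siKeap1, siFem1b and siFem1b/Keap1, against 0.84 ± 0.0999 CPM with siCont. It rose 1.5-fold with siFem1b and 2.13-fold with siFem1b/Keap1 (adjusted p = 0.019 and 6.6e-05). Eif2ak2 encodes PKR, the kinase that stops translation when it binds double-stranded RNA. It averaged 52.9 ± 3.04, 57.3 ± 3.1 and 67.5 ± 3.43 CPM with siKeap1, siFem1b and siFem1b/Keap1, against 42.3 ± 1.95 CPM with siCont. All 3 rises passed the test, the smallest being 1.25-fold with siKeap1 (adjusted p = 0.00011). Zbp1, a sensor of Z-form nucleic acid, had 7, 13 and 12 counts over the siKeap1, siFem1b and siFem1b/Keap1 groups and 4 over siCont, too few for the test.

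The oligoadenylate synthetases make a second messenger that activates ribonuclease L. Of the 5 genes tested in this group, which includes the OAS-like Oasl1 and Oasl2, 4 rose with siFem1b. Oasl2, an OAS-like protein, had 0.936, 1.45 and 1.08 CPM with siKeap1, 3.32, 3.1 and 3.1 with siFem1b, 4.85, 4.85 and 4.99 with siFem1b/Keap1, against 1.02, 1.02 and 0.905 with siCont. Each siFem1b and siFem1b/Keap1 library lay above all siKeap1 and siCont libraries, and siFem1b/Keap1 lay above siFem1b. The rise was 3.24-fold with siFem1b and 4.99-fold with siFem1b/Keap1 (adjusted p = 1.6e-08 and 7.4e-11). Oas3 averaged 0.355 ± 0.0746, 0.929 ± 0.156 and 1.09 ± 0.192 CPM with siKeap1, siFem1b and siFem1b/Keap1, against 0.276 ± 0.0694 CPM with siCont, and rose with siFem1b and siFem1b/Keap1 (adjusted p = 2.9e-05 and 4.7e-06).

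Oasl1, which in mouse represses translation of Irf7 mRNA, had a different order. It averaged 1.28 ± 0.333, 0.87 ± 0.101 and 1.33 ± 0.254 CPM with siKeap1, siFem1b and siFem1b/Keap1, against 0.501 ± 0.0387 CPM with siCont. It rose 2.55-fold with siKeap1 (adjusted p = 0.00025) and was lower with siFem1b than with siKeap1 (log2 -0.55 ± 0.23, adjusted p = 0.045). Oas1b was the only tested member with no call in any of the 3 comparisons with siCont, with means between 0.492 and 0.576 CPM in the 4 groups. Oas1a rose 9.28-fold with siFem1b/Keap1 (adjusted p = 3.6e-06), from 114 counts over that group and 12 over siCont. On its main transcript, 68.8% of all 31-base stretches also occur in other genes, nearly all of them in Oas1g, so the authors' estimate could split reads between them; summed, the pair had 24, 40 and 135 counts with siKeap1, siFem1b and siFem1b/Keap1, against 13 with siCont. Oas2 had no count in siCont and 1, 12 and 20 counts with siKeap1, siFem1b and siFem1b/Keap1. With siCont set at a floor of 3 counts over the group, it was 3.86-fold higher with siFem1b and 6.71-fold higher with siFem1b/Keap1. These folds take the counts of the other group as exact. Oas2, Oas3, Oas1b and Oas1a lie together at chr5:120730333-120907521.

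The IFIT genes, which encode RNA-binding proteins that block translation of viral RNA, did not move as a group, although all 4 lie together at chr19:34550694-34650009. Ifit2 had 10.4, 11.1 and 10.1 CPM with siKeap1, 13.8, 13.8 and 12.6 with siFem1b, 12.3, 11 and 9.93 with siFem1b/Keap1, against 12.8, 12.9 and 15.3 with siCont. The siKeap1 and siFem1b/Keap1 libraries all lay below siCont, and siFem1b overlapped siCont. Ifit2 fell 1.3-fold with siKeap1 (adjusted p = 0.0016) and 1.23-fold with siFem1b/Keap1 (adjusted p = 0.0046), the only fall of a member with both siRNAs. That fall did not pass with scaling by library totals (log2 -0.18, adjusted p = 0.073) or with the first run alone (-0.21, adjusted p = 0.18), and the siKeap1 fall did not pass with the first run alone (adjusted p = 0.061). With siFem1b its log2 fold change was -0.033 ± 0.085 (adjusted p = 0.75). Ifit1 rose 1.82-fold with siKeap1 (adjusted p = 0.021), with 0.624, 1.25 and 0.687 CPM in those libraries, and had log2 fold changes of -0.052 ± 0.31 with siFem1b and 0.30 ± 0.30 with siFem1b/Keap1 that did not pass.

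Ifit3 rose 2.92-fold with siFem1b and 2.84-fold with siFem1b/Keap1 (adjusted p = 0.0085 and 0.0097) at levels under 0.6 CPM. Ifit3b, its near copy, had 4, 8 and 18 counts over the siKeap1, siFem1b and siFem1b/Keap1 groups and 1 over siCont. Since 61.8% of the 31-base stretches of Ifit3 occur in Ifit3b, the pair was also summed: it had 28, 51 and 58 counts with siKeap1, siFem1b and siFem1b/Keap1, against 15 with siCont.

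Of the 8 genes for ubiquitin-like modification, ubiquitin ligases and ADP-ribosyltransferases, 7 rose with siFem1b and all 8 with siFem1b/Keap1. Parp9 and Dtx3l encode partners in one ligase complex, and with Parp14 they lie together at chr16:35832874-35972605. Parp9 had 4.52, 4.11 and 4.07 CPM with siKeap1, 12.5, 13.1 and 12.2 with siFem1b, 15, 13.2 and 14.8 with siFem1b/Keap1, against 4.85, 4.55 and 5.72 with siCont. Its siFem1b and siFem1b/Keap1 libraries lay far above all others, and its siKeap1 libraries lay below siCont. Parp9 fell 1.2-fold with siKeap1 (adjusted p = 0.042) and rose 2.49-fold with siFem1b (adjusted p = 2.8e-10) and 2.82-fold with siFem1b/Keap1 (adjusted p = 2.4e-11). The siKeap1 call did not hold without siCont library 3 (adjusted p = 0.26), nor without siKeap1 library 2 or 3, siFem1b library 2 or 3, or siFem1b/Keap1 library 1 or 3 (adjusted p between 0.068 and 0.12). It also did not pass with DESeq2 (adjusted p = 0.077), library totals (0.070), no filter (0.060), at least 1 CPM in 3 libraries (0.064), only the groups compared (0.12), a replicate block (0.054) or either run alone (0.11 and 0.29). Dtx3l rose 2.39-fold with siFem1b and 2.67-fold with siFem1b/Keap1 (adjusted p = 6.3e-10 and 6.9e-11). The annotated spans of Dtx3l and Parp9 overlap by 682 bases on opposite strands, and use of strand in the counting was not stated, so reads there cannot be told apart.

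Parp14, a mono-ADP-ribosyltransferase, had 1.15, 1.97 and 1.45 CPM with siKeap1, 3.91, 5.33 and 4.7 with siFem1b, 6.57, 5.76 and 6.71 with siFem1b/Keap1, against 1.54, 1.18 and 1.34 with siCont. The siFem1b libraries lay above siKeap1 and siCont, and siFem1b/Keap1 above siFem1b. Its rises were 3.4-fold with siFem1b and 4.65-fold with siFem1b/Keap1 (adjusted p = 3.6e-08 and 7e-10). Parp12, of the same enzyme class, averaged 19.7 ± 0.938, 29.7 ± 1.7 and 35.5 ± 0.782 CPM with siKeap1, siFem1b and siFem1b/Keap1, against 18.9 ± 0.874 CPM with siCont, and Trim21, a ligase and cytosolic antibody receptor, averaged 1.53 ± 0.163, 3.58 ± 0.526 and 4.27 ± 0.266 against 1.32 ± 0.235 CPM. Both rose with siFem1b (adjusted p = 1.1e-08 and 1.6e-07).

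Isg15, conjugated to proteins in the antiviral state, was low throughout, with 0.25, 0.442 and 0.238 CPM with siKeap1, 0.934, 0.669 and 0.762 with siFem1b, 0.939, 0.782 and 0.812 with siFem1b/Keap1, against 0.209, 0.255 and 0.244 with siCont. It rose 3.33-fold with siFem1b and 3.56-fold with siFem1b/Keap1 (adjusted p = 6.2e-05 and 2.7e-05), with no overlap between those libraries and the other 6. Usp18, which removes ISG15 from proteins and dampens receptor signalling, rose 3.42-fold with siFem1b, on 54 counts over siFem1b and 15 over siCont (adjusted p = 0.0011). Trim25, the ligase that activates RIG-I, was high in both groups with the Keap1 siRNA. It had 52.9, 52.5 and 50.3 CPM with siKeap1, 38.1, 38.2 and 38.9 with siFem1b, 49.2, 48.8 and 47.5 with siFem1b/Keap1, against 41.3, 38.5 and 43.3 with siCont. Trim25 rose 1.26-fold with siKeap1 (adjusted p = 7.7e-06) and 1.18-fold with siFem1b/Keap1 (adjusted p = 0.00014), and had a log2 fold change of -0.097 ± 0.046 with siFem1b (adjusted p = 0.077).

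All 6 tested GTPases rose with siFem1b/Keap1, and 4 of them with siFem1b. Igtp (chr11:58199556-58207591, plus strand), an immunity-related GTPase that acts at membranes around intracellular pathogens, had 0.312, 0.13 and 0.291 CPM with siKeap1, 2.34, 2.45 and 2.16 with siFem1b, 1.77, 2.92 and 2.32 with siFem1b/Keap1, against 0.261, 0.255 and 0.342 with siCont. The siFem1b and siFem1b/Keap1 libraries overlapped each other and lay well above all others. Its rise was 7.94-fold with siFem1b (log2 2.99 ± 0.26, adjusted p = 1.1e-08) and 8.01-fold with siFem1b/Keap1 (log2 3.0 ± 0.26, adjusted p = 6.7e-09). Igtp shares 16.4% of its 31-base stretches with Irgm2. Irgm1, of the same family, rose less, to a mean of 26 ± 0.856 CPM with siFem1b and 33.2 ± 1.53 with siFem1b/Keap1, against 18.9 ± 1.99 with siCont (adjusted p = 8.5e-06 and 2.6e-09).

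Gbp2, a guanylate-binding protein, had 0.405, 0.338 and 0.317 CPM with siKeap1, 2.07, 1.95 and 1.71 with siFem1b, 1.88, 1.77 and 1.53 with siFem1b/Keap1, against 0.704, 0.414 and 0.636 with siCont. The siKeap1 libraries lay below siCont, and the other 6 lay above it. Gbp2 fell 1.68-fold with siKeap1 (adjusted p = 0.031) and rose 3.21-fold with siFem1b and 2.91-fold with siFem1b/Keap1 (adjusted p = 9.6e-07 and 2.6e-06); the fall did not pass without siCont library 1 (adjusted p = 0.12), without siCont library 3 (0.089), without siKeap1 library 2 (0.078) or without siKeap1 library 3 (0.093). It also did not pass with DESeq2 (adjusted p = 0.073), no filter (0.062), only the groups compared (0.083) or either run alone (0.20 and 0.13). Gbp7 rose 1.93-fold with siFem1b (adjusted p = 0.0032), and Gbp3, next to it at chr3:142530342-142638008 with Gbp2, passed only with siFem1b/Keap1 (1.76-fold, adjusted p = 0.028).

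Mx1 encodes a dynamin-like GTPase that traps viral nucleocapsids. It had 1.28, 1.4 and 1.22 CPM with siKeap1, 1.28, 1.45 and 1.26 with siFem1b, 2.5, 2.16 and 2.35 with siFem1b/Keap1, against 1.07, 1.31 and 1.27 with siCont. The siFem1b/Keap1 libraries stood above the other 9, which overlapped. Mx1 rose 1.92-fold with siFem1b/Keap1 (adjusted p = 2.6e-05), and its log2 fold change with siFem1b was 0.13 ± 0.17 (adjusted p = 0.52). Mx2 had no count in siCont and 6, 20 and 19 counts with siKeap1, siFem1b and siFem1b/Keap1. Against the same floor of 3 counts as for Oas2, it was 6.44-fold higher with siFem1b and 6.37-fold higher with siFem1b/Keap1.

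Among the other effectors, 8 of 9 rose with siFem1b and all 9 with siFem1b/Keap1. Bst2 (chr8:71534255-71537456, minus strand) encodes tetherin, which holds budding virions at the cell surface. It had 2.96, 2.23 and 2.43 CPM with siKeap1, 5.16, 5.33 and 5.6 with siFem1b, 8.37, 8.47 and 7.73 with siFem1b/Keap1, against 1.75, 2.29 and 1.74 with siCont. The siFem1b/Keap1 libraries were highest and siFem1b next, and siKeap1 overlapped siCont. Bst2 rose 2.81-fold with siFem1b and 4.29-fold with siFem1b/Keap1 (adjusted p = 6.9e-09 and 2.1e-11). Its 1.32-fold rise with siKeap1 (adjusted p = 0.025) did not pass without siCont library 1, siCont library 3 or siKeap1 library 1 (adjusted p = 0.097, 0.11 and 0.14).

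Lgals3bp, a secreted glycoprotein that binds galectin-3, responded to each siRNA. It had 9.79, 11.7 and 10.3 CPM with siKeap1, 13.9, 12 and 13.8 with siFem1b, 26.4, 23.8 and 23.4 with siFem1b/Keap1, against 6.55, 6.66 and 5.92 with siCont. Every depleted library lay above all siCont libraries, and siFem1b/Keap1 lay above both single depletions. The rises were 1.67-fold with siKeap1, 2.09-fold with siFem1b and 3.86-fold with siFem1b/Keap1 (adjusted p = 2e-06, 4.8e-09 and 3.5e-13). Ifi35, which binds the related protein NMI, had 15.6, 15.5 and 15.5 CPM with siKeap1, 23.8, 24.3 and 24.4 with siFem1b, 31.8, 35.7 and 35.1 with siFem1b/Keap1, against 12.9, 15 and 12.3 with siCont. It rose 1.16-fold with siKeap1, 1.81-fold with siFem1b and 2.56-fold with siFem1b/Keap1 (adjusted p = 0.018, 2.6e-09 and 1.9e-12), and the siKeap1 rise did not pass without siCont library 1 or siCont library 3 (adjusted p = 0.071 and 0.12).

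Ifi27, a small hydrophobic membrane protein, had 14.9, 16 and 13.2 CPM with siKeap1, 38.4, 40.7 and 42.1 with siFem1b, 47.8, 46.3 and 48.8 with siFem1b/Keap1, against 15.9, 17.7 and 18.1 with siCont. It rose 2.34-fold with siFem1b and 2.76-fold with siFem1b/Keap1 (adjusted p = 9.6e-12 and 4.7e-13), and fell 1.17-fold with siKeap1 (adjusted p = 0.014), where the libraries overlapped siCont. The fall did not pass without siCont library 3 or siKeap1 library 3 (adjusted p = 0.068 and 0.097). Xaf1, a partner of the apoptosis inhibitor XIAP, had 0.998, 1.51 and 1.11 CPM with siKeap1, 3.27, 3.99 and 3.81 with siFem1b, 4.25, 3.46 and 3.61 with siFem1b/Keap1, against 1.02, 1.08 and 1.12 with siCont. The siFem1b and siFem1b/Keap1 libraries overlapped each other and lay above the rest, with rises of 3.42-fold and 3.51-fold (adjusted p = 2e-08 and 9.9e-09).

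Isg20, an exoribonuclease that degrades viral RNA, had 4.46, 4.39 and 4.07 CPM with siKeap1, 4.06, 4.8 and 4.52 with siFem1b, 7.67, 8.05 and 8.57 with siFem1b/Keap1, against 3.68, 4.65 and 3.54 with siCont. The siFem1b/Keap1 libraries stood alone above the other 9. Isg20 rose 2.06-fold with siFem1b/Keap1 (adjusted p = 6.3e-08), and its log2 fold change with siFem1b was 0.18 ± 0.11 (adjusted p = 0.18). Samhd1, the hydrolase that lowers the supply of DNA precursors, was the member with the highest CPM and rose least of the effectors called with siFem1b: it averaged 86.1 ± 2.06, 104 ± 2.85 and 117 ± 1.69 CPM with siKeap1, siFem1b and siFem1b/Keap1, against 80.4 ± 1.15 CPM with siCont (adjusted p = 0.045, 6.4e-08 and 1.9e-10). Rsad2, which encodes viperin, and Ifi44 were low, with 54 and 37 counts over siFem1b against 15 and 4 over siCont. From those counts the ratios with siFem1b were 3.48 (95% Clopper-Pearson interval 1.93 to 6.63) for Rsad2 and 8.93 (3.21 to 34.5) for Ifi44, intervals that cover counting error only.

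**Figure D2:**
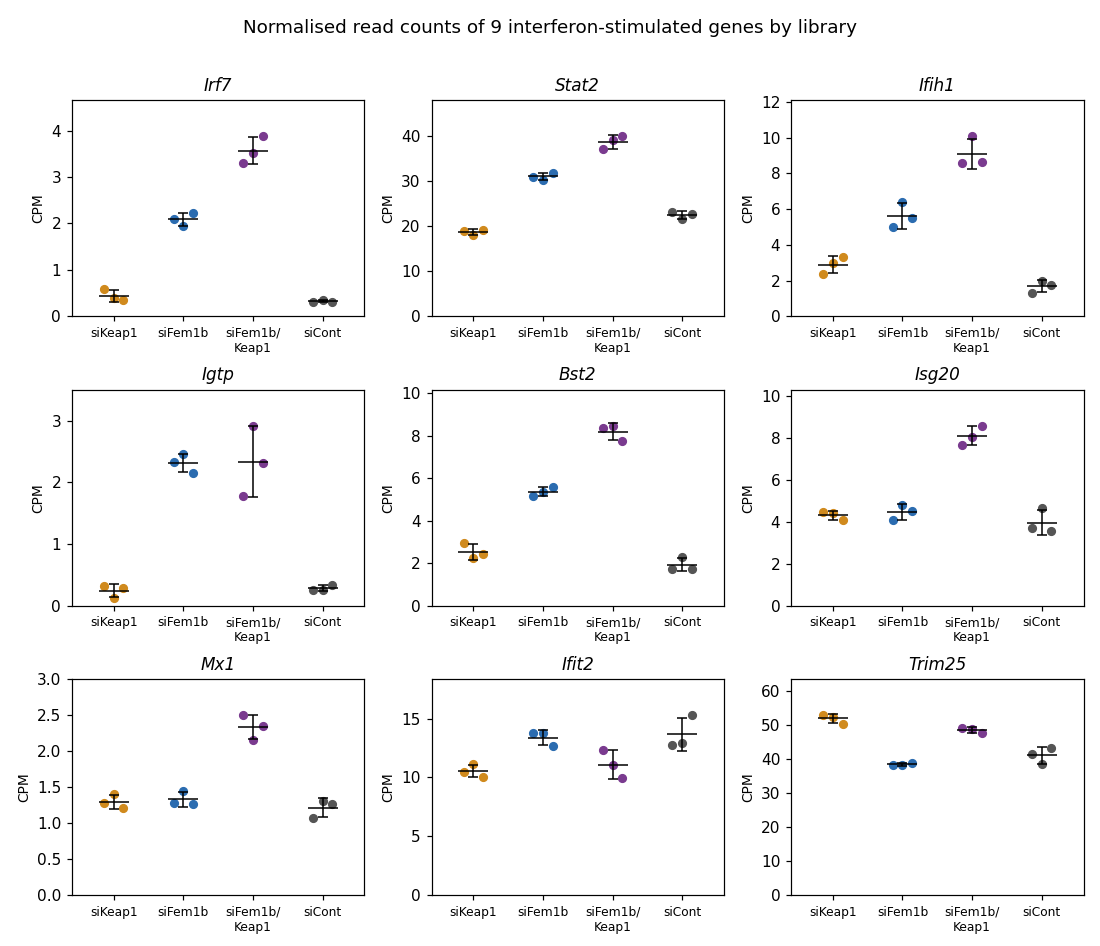
Normalised read count (CPM, y axis from 0) of 9 interferon-stimulated genes in each library (points), with mean and SD (bars), for siKeap1, siFem1b, siFem1b/Keap1 and siCont. Irf7, Igtp and Bst2 are high in both groups with siFem1b, Isg20 and Mx1 only in siFem1b/Keap1 libraries, Trim25 in both groups with siKeap1, and Ifit2 is lowest in the groups with siKeap1.

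The siFem1b siRNA was also compared in cells that received siKeap1, between other libraries than those of siFem1b against siCont. Both comparisons came from one fit of all libraries, with the same filter, scaling and estimate of spread. They are therefore not fully independent. With siFem1b/Keap1, 32 of the 40 tested members were higher than with siKeap1 and 0 lower, where 32.0% of all tested genes were called higher and 31.6% lower. The median log2 fold change of the members was 1.17, and 1.27 with library totals, where the median of all tested genes was 0.10 and higher calls were 61.7% of all calls, against 50.3% with TMM. At an unadjusted p under 0.05, 33 members passed, and DESeq2 called 0 lower; 1 was lower without siCont library 2, siKeap1 library 1, siFem1b library 2, siFem1b library 3 or siFem1b/Keap1 library 1. Of these 32 members, 30 (93.8%) were also among the 33 that rose with siFem1b over siCont, of which they made up 90.9%; over all tested genes these shares of the higher calls were 77.0% and 82.2%. Isg20 and Mx1 were called only over siKeap1, and Ifit3, Oasl1 and Rsad2 only over siCont. The sign of the fold change was the same in both comparisons for 38 of the 40 members, and for 84.1% of all tested genes.

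The interaction, which asks whether the change with both siRNAs departs from the sum of the single changes on the log2 scale, was called for 5 members, all higher, where 6.11% of all tested genes were called higher and 5.32% lower. These were Stat2 (log2 0.58 ± 0.072, adjusted p = 2.2e-05), Ifi27 (0.47 ± 0.093, adjusted p = 0.0025), Isg20 (0.73 ± 0.15, adjusted p = 0.0039), Parp9 (0.45 ± 0.13, adjusted p = 0.029) and Mx1 (0.71 ± 0.23, adjusted p = 0.049). Stat2, Ifi27 and Parp9 fell with siKeap1 alone. Between siFem1b/Keap1 and siFem1b, Stat2 and Ifi27 were higher with both siRNAs (log2 0.32 ± 0.049 and 0.24 ± 0.060, adjusted p = 3.4e-05 and 0.0036), and Parp9 had a log2 difference of 0.18 ± 0.080 that did not pass. Isg20 and Mx1 passed in neither single depletion and rose in the double one. The median interaction of the 40 members was 0.11, beside 0.02 over all tested genes. Mx1 did not pass when any library other than siCont library 1 was left out (adjusted p between 0.056 and 0.14), nor with DESeq2 (0.13), DESeq2 size factors (0.055), library totals (0.051), no filter (0.12), a replicate block (0.073) or either run alone (0.62 and 0.12). Parp9 did not pass without siCont library 3, siKeap1 library 2 or 3, siFem1b library 1 or 3, or siFem1b/Keap1 library 1 or 3 (adjusted p between 0.052 and 0.10), nor with either run alone (0.13 and 0.20). With the first run alone, Ifi27 and Isg20 did not pass either (adjusted p = 0.055 and 0.11). The count of interactions was 3 without siKeap1 library 2 or 3, siFem1b library 1 or 3, or siFem1b/Keap1 library 1 or 3.

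**Figure D3:**
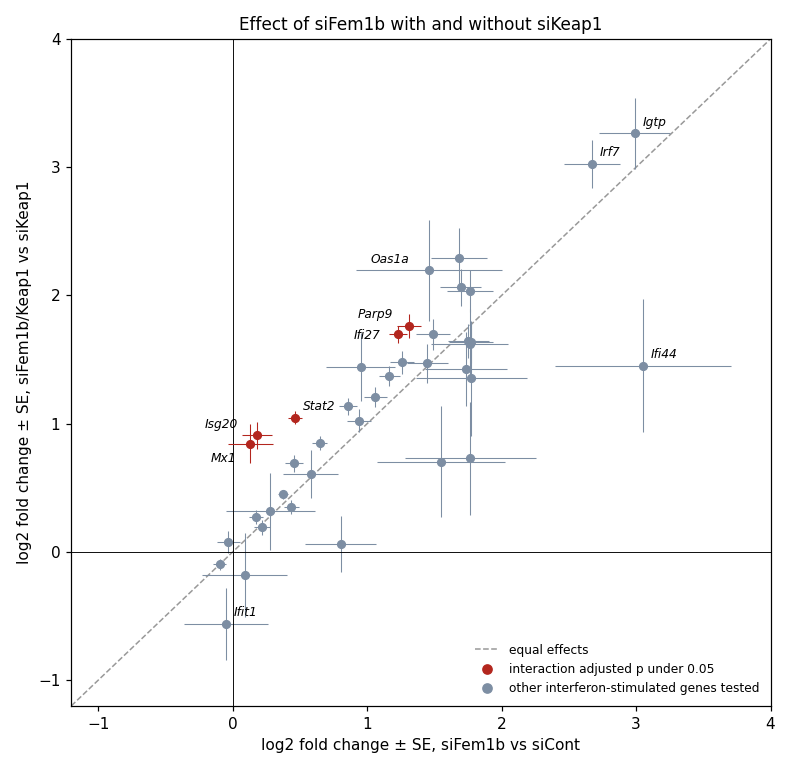
Log2 fold change ± SE of the 40 tested members for siFem1b/Keap1 against siKeap1 (y axis) and for siFem1b against siCont (x axis), with the line of equal effects. The 5 members with a called interaction (red) all lie above the line, and Irf7 and Igtp have large values on both axes.

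The effect of adding siKeap1 to siFem1b was read from the 6 libraries that received siFem1b. With siFem1b/Keap1, 20 of the 40 were higher than with siFem1b and 1, Ifit2, was lower, where 21.3% of all tested genes were called higher and 21.8% lower. The fall of Ifit2 did not pass without siFem1b library 1 or siFem1b/Keap1 library 3 (adjusted p = 0.053 and 0.071). The largest rise among members of at least 1 CPM was that of Lgals3bp, at 1.85-fold (adjusted p = 3.2e-08), followed by Isg20 at 1.82-fold (adjusted p = 2.2e-06) and Mx1 at 1.76-fold (adjusted p = 0.00027). Irf7, Ifih1 and Bst2 were 1.7-, 1.62- and 1.53-fold higher, while Igtp, Xaf1 and Irf1 had log2 differences of 0.014 ± 0.19, 0.036 ± 0.14 and -0.0019 ± 0.053 that did not pass. Of the 20 members higher here, 8 (40.0%) also rose with siKeap1 over siCont, where they made up 88.9% of the 9; over all tested genes these shares were 58.3% and 67.5%. Ifit2 was 1 of the 5 that fell with siKeap1, and the sign was the same in both comparisons for 31 members (77.5%), beside 74.3% of all tested genes. In the direct comparison of the single depletions, 27 members were higher with siFem1b than with siKeap1 and 3 lower, where 32.1% of all tested genes were called higher and 31.8% lower. The 3 lower ones were Trim25 (log2 -0.43 ± 0.046), Oasl1 (-0.55 ± 0.23) and Ifit1 (-0.92 ± 0.29), with adjusted p of 1.2e-07, 0.045 and 0.0093, and without siKeap1 library 2 only 1 member was lower.

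Levels were set side by side across genes as the authors' deposited TPM, which correct for transcript length. In siFem1b libraries, Ifi27 had the highest mean level at 122 ± 8.63 TPM, against 46.6 ± 0.921 TPM in siCont libraries, followed by Samhd1 at 56 ± 2.77 against 40.3 ± 3.46 TPM and Irf3 at 47.1 ± 4.16 against 37.5 ± 1.55 TPM (mean ± SD, n = 3 each). Irf7 stayed low among them, at 2.33 ± 0.356 TPM with siFem1b and 3.55 ± 0.282 TPM with siFem1b/Keap1, against 0.377 ± 0.11 TPM with siCont. Isg15 and Mx1 reached 2.67 ± 0.373 and 1.65 ± 0.423 TPM with siFem1b/Keap1. Some groups that were apart in CPM overlapped in TPM, and the cases given here may not be all of them. For Stat2, Gbp2 and Parp9, siKeap1 overlapped siCont. For Stat2, Mx1, Ifih1, Oasl2 and Parp14, siFem1b overlapped siFem1b/Keap1. For Ifit2, siFem1b/Keap1 overlapped siCont. For Usp18, siFem1b overlapped siCont, with means of 0.693 ± 0.0648 and 0.411 ± 0.354 TPM. Igtp, with a larger fold change than Irf7 under siFem1b, reached 2.03 ± 0.21 TPM there, against 0.24 ± 0.0467 TPM with siCont.

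No transcript of an interferon rose to a level that could be tested. Of the 10 interferon genes looked for, Ifna1, Ifna2, Ifna5, Ifnk, Ifng, Ifnl2 and Ifnl3 had no count in any library. Ifnb1, the first type I interferon made by most cells, had 3, 1 and 0 counts over siKeap1, siFem1b and siFem1b/Keap1 and 0 over siCont, Ifna4 had 1 count over siFem1b/Keap1, and Ifne had between 2 and 4 counts in each group. Their receptors were expressed. Of the 6 receptor genes, 5 rose with siFem1b and none fell (30.0% and 32.1% of all tested genes). Ifngr2, a chain of the interferon gamma receptor, averaged 68.6 ± 1.76 CPM with siFem1b against 31.8 ± 1.1 CPM with siCont (2.15-fold, adjusted p = 2.2e-13). Il10rb, shared with the interferon lambda receptor, and Ifngr1 rose 1.53-fold and 1.31-fold (adjusted p = 3.8e-08 and 2.6e-05), and Ifnlr1 had 63 counts over siFem1b and 4 over siCont. Ifnar1, a chain of the type I interferon receptor, averaged 43.3 ± 0.298, 79.9 ± 3.03 and 55.9 ± 0.861 CPM with siKeap1, siFem1b and siFem1b/Keap1, against 68.6 ± 0.658 CPM with siCont: it rose with siFem1b and fell in both groups with siKeap1 (adjusted p = 1.4e-10, 6.3e-05 and 2.1e-06 in the same order of groups).

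Of 9 genes for Janus kinases, STATs and their inhibitors, 3 rose and 2 fell with siFem1b. Over all tested genes, 30.0% were called higher and 32.1% lower, which also stands beside the lists that follow. Stat3 rose 1.79-fold, Tyk2 1.49-fold and Jak2 1.27-fold (adjusted p = 5.8e-13, 9e-10 and 2.4e-05), and Socs1, an inhibitor of Janus kinases, fell (log2 -0.72, adjusted p = 6.4e-05). Of the 19 other sensors and adaptors tested, 8 rose and 2 fell, with rises of 1.45-fold for Ticam1, the adaptor of TLR3, 1.44-fold for Nlrc5, a regulator of MHC class I genes, 1.67-fold for the DNA exonuclease gene Trex1 and 1.51-fold for the kinase gene Ikbke (adjusted p = 4.4e-08, 1.8e-06, 3.6e-06 and 4.1e-05). Of 6 other IRF-named genes tested, 2 rose and 2 fell. Irf5 rose 2.6-fold and Irf2 1.21-fold, while Irf2bpl and Irf2bp2 fell (log2 -0.45 and -0.36).

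Among interferon-induced genes outside the 44, 21 of 29 tested rose with siFem1b and 2 fell (30.0% and 32.1% of all tested genes). Ube2l6, the conjugating enzyme for ISG15, rose 2.26-fold, Lgals9 2.06-fold and Ifitm2, a membrane protein that blocks viral entry, 1.51-fold (adjusted p = 6.9e-12, 8e-11 and 9.3e-10). Isg20l2, a nucleolar exoribonuclease named for its likeness to ISG20, fell (log2 -1.16, adjusted p = 4.7e-14). Of 4 other GTPases tested, 3 rose: Irgm2 had 186 counts over siFem1b and 20 over siCont (8.87-fold, adjusted p = 3.2e-08), Gbp9 had 53 over siFem1b and 4 over siCont, and Gbp4 had 44 over siFem1b and 12 over siCont. Of the 6 interferon-induced chemokine genes, 2 were tested and both fell. Ccl7 and Ccl2, which attract monocytes, averaged 5.0 ± 0.238 and 8.42 ± 0.515 CPM with siFem1b, against 19.3 ± 2.33 and 19.4 ± 3.04 CPM with siCont (log2 -1.94 and -1.2, adjusted p = 1.6e-12 and 7.6e-09), and Cxcl9, Cxcl10 and Cxcl11 had 14 counts or fewer in any group. With siFem1b/Keap1 over siCont, 5 receptor genes rose and 1 fell, 5 and 3 of the Janus kinase and STAT list, 12 and 2 of the other sensors and adaptors, 3 and 3 of the other IRF genes, 23 and 2 of the other induced genes, 3 and 0 of the other GTPases and 0 and 2 of the chemokines, where 33.8% and 33.7% of all tested genes were called. With siKeap1 over siCont these counts were 0 and 2, 4 and 0, 9 and 5, 2 and 1, 7 and 3, 1 and 0, and 0 and 0, where 18.4% and 23.8% of all tested genes were called.

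Sequence matches to the siRNAs themselves were also counted. A 7-base match to the seed of the Fem1b siRNA (guide bases 2 to 8) was present in the 3' UTR of 3 members, Ifit1, Parp12 and Stat2 (6.82%), against 12.5% of the tested genes searched. The Keap1 siRNA had a match in 0 members, against 2.57% of tested genes, and the control siRNA in 8 (18.2%), against 23.5%. Of the 3 members with a Fem1b siRNA match, Stat2 and Parp12 rose with siFem1b and Ifit1 did not pass.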

How the data were processed

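RNA from C2C12 cells was sequenced in 12 libraries, 3 per siRNA group, each in 2 runs. The deposited tables hold estimated counts and TPM per transcript, made by the authors with kallisto 0.44.0 on mm10, per the submitters' processing notes; the strand setting is not given in the sources used here. Of 118489 transcripts, 116728 (98.5%) matched GENCODE M21 by identifier and length; the rest held between 0.606% and 0.640% of the counts. Expected counts were summed per gene and over both runs and rounded; deposited TPM were summed per gene and averaged over the runs. Libraries totalled 31883615 to 42980730 counts.

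Genes passing filterByExpr (minimum count 10) were scaled by TMM and tested in one fit of the 4 groups with edgeR 4.0.16 in R 4.3.3 (robust quasi-likelihood F test, two-sided), for 6 pairwise comparisons and an interaction. P-values were adjusted by Benjamini-Hochberg over the 14577 genes of each comparison, with a threshold of 0.05. CPM use the TMM-scaled library sizes. The method was also run on simulated counts with 200 genes changed in siFem1b and a fixed spread. Far more genes were called in the comparisons here, so that run does not give their error rates.

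The members and gene lists were chosen with earlier results of these data known. Values in every library are given for the interferon factors, the members with the largest calls in each comparison with siCont, those with a called interaction, and a few others; Ddx58 and Isg15 were added after their values were seen, as were the gene pairs that share sequence. In the other lists, up to 4 genes with the smallest p with siFem1b are named, plus Ifnar1 and the low chemokines, chosen after their values were seen. Some genes of those lists are not reported here, and the lists' counts leave them out. Replicate numbers did not pair libraries: of 18 same-numbered pairs, 1 had deviations correlated above 0.1. Alternatives were another scaling, filter, test (DESeq2 1.42.0), threshold, run, set of samples, a replicate block and each library left out. Intervals cover counting error only. Floors of 3 counts stand in for a group without a count and leave out the counting error of the other group.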

Additional observations from a re-analysis of the deposited data

Results flagged for a closer look

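For 5 interferon-stimulated genes, the effect of siFem1b differed between cells with siKeap1 and cells without it by the interaction term itself, in edgeR's quasi-likelihood test with Benjamini-Hochberg adjustment over all genes. Stat2 had an interaction of 0.58 on the log2 scale (adjusted p = 2.2e-05), Isg20 of 0.73 (adjusted p = 0.0039), Ifi27 of 0.47 (adjusted p = 0.0025), Parp9 of 0.45 (adjusted p = 0.029) and Mx1 of 0.71 (adjusted p = 0.049). All 5 were positive, where 6.11% of all tested genes had a positive call. The call of Mx1 was lost with DESeq2, DESeq2 size factors, library totals, no filter, a replicate block, either run alone and 11 of 12 libraries left out in turn (adjusted p between 0.051 and 0.62), and that of Parp9 with either run alone and 7 of 12 libraries left out in turn (adjusted p between 0.052 and 0.20). The log2 change of Stat2 was 1.05 ± 0.051 with siFem1b/Keap1 over siKeap1 and 0.47 ± 0.051 with siFem1b over siCont. For Isg20 these were 0.91 ± 0.11 and 0.18 ± 0.11, and for Mx1 0.84 ± 0.15 and 0.13 ± 0.17. The epithelial and differentiated muscle marker sums also differed between these groups, and their part in the interaction was not tested.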

How the results depend on the processing

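Single calls were followed through the alternatives only where they passed in the main fit. This covered the interferon factors, members with the largest calls at a mean of at least 1 CPM, and those with the smallest interaction p. None of these calls reversed its direction, while 2083 of their values stayed past the threshold and 90 fell short of it. Other members, among them Ifit1, Oasl1, Dhx58, Samhd1 and Gbp3, were not followed in this way. The deposited TPM were not among the alternatives. In TPM, Parp9 did not fall with siKeap1: it averaged 2.71 ± 0.646 TPM there and 2.56 ± 0.336 TPM with siCont. With siFem1b and siFem1b/Keap1 Parp9 averaged 7.73 ± 0.684 and 8.90 ± 0.955 TPM, and its interaction was not tested on TPM. With siKeap1 over siCont, 9 members were higher and 5 lower; at an adjusted p under 0.01 these were 5 and 2. The lower count there was 3 with DESeq2, with no filter, with the second run alone and with only the groups compared, and 1 with the first run alone. With the first run alone, 1 was lower with siFem1b than siCont, 0 with siFem1b/Keap1 than siCont, 1 with siFem1b/Keap1 than siKeap1, 0 with siFem1b/Keap1 than siFem1b, and 1 interaction was called; runs alone hold fewer reads. The siFem1b/Keap1 over siCont fall was 0 with library totals; over siKeap1, 1 was lower with at least 1 CPM in 3 libraries and with only the groups compared; over siFem1b, 0 at 0.01. Interactions numbered 3 at 0.01 and 3 with the second run. The cause of the other moves was not tested.

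Leaving out each library in turn gave, for siKeap1 over siCont, 5 to 10 higher (5 without siCont 1 or siCont 3) and 2 to 5 lower (3 without siCont 3 or siKeap1 2, 2 without siKeap1 3). It gave 30 to 33 higher and 0 to 1 lower for siFem1b over siCont (1 without siCont 2), 34 to 37 and 1 for siFem1b/Keap1 over siCont, and 29 to 32 and 0 to 1 for siFem1b/Keap1 over siKeap1 (1 without siCont 2, siKeap1 1, siFem1b 2, siFem1b 3 or siFem1b/Keap1 1). For siFem1b/Keap1 over siFem1b it gave 17 to 20 and 0 to 1 (0 without siFem1b 1 or siFem1b/Keap1 3), for siFem1b over siKeap1 26 to 28 and 1 to 3 (1 without siKeap1 2), and for the interaction 3 to 6 (3 without siKeap1 2, siKeap1 3, siFem1b 1, siFem1b 3, siFem1b/Keap1 1 or siFem1b/Keap1 3).

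With a replicate block the counts were 8 higher and 4 lower for siKeap1 over siCont, 33 and 0 for siFem1b, 37 and 1 for siFem1b/Keap1, 32 and 0 over siKeap1, 20 and 1 over siFem1b, 27 and 3 for siFem1b over siKeap1, and 4 interactions; 3 of 12 libraries correlated best with their own number. Members under 1 CPM rest on few counts, so folds of these genes are imprecise.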
